A study of Homo sapiens with 12 samples.

Results

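IMR90 cells, a normal human lung fibroblast line, were compared in 2 states, with those arrested by oncogenic RAS set against cells that overexpressed DOT1L. The 3 RAS and the 3 DOT1L OE libraries were taken by their labels from the 12 libraries of the series, and all 48162 gene IDs of the count tables entered the comparison. RAS cells carried the pBABE retrovirus with HRASG12V and were selected with 3 µg/mL puromycin, whereas DOT1L OE cells carried the MSCB retrovirus with human wild-type DOT1L and were selected with 1 µg/mL blasticidin. Both selections lasted 4 days per the labels, whereas the study's methods give a lower puromycin dose for longer to cells with pBABE vectors, so the scheme used for these RAS and control libraries is uncertain. The labelled dose and days are those that the methods give for cells with hairpin vectors. Whether RAS and control cells also carried a control hairpin, which DOT1L OE cells would lack, is not known here. Both cultures were grown in 2% O2. The control libraries carried the empty pBABE vector under puromycin and serve here only as a reference level. The other 3 libraries carried HRASG12V with a hairpin against DOT1L and were not part of the comparison. Vector, selection drug and transgene differed together between RAS and DOT1L OE, so their shares in any difference cannot be told apart, and the labels give no batch. The same holds for DOT1L OE against control, since no library carried an empty MSCB vector under blasticidin. The cells were mixed populations of infected cells from 1 fibroblast line. The methods name biological replicates while the legends name technical ones, so the p-values measure only the spread between these libraries.

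Oncogene-induced senescence (OIS) is the stable exit from the cell cycle that normal fibroblasts enter when an oncogene such as RAS signals without pause. Senescent cells keep an active secretory programme, the senescence-associated secretory phenotype (SASP), made of interleukins, chemokines, matrix proteases and growth factors. IL1A sits near the top of this programme and signals through NF-kB and C/EBPB to the other cytokines. DOT1L is the methyltransferase of lysine 79 of histone H3, a mark found over the bodies of transcribed genes. The study asked how DOT1L controls the SASP in OIS, and its DOT1L OE cells express DOT1L without oncogenic RAS. Setting RAS directly against DOT1L OE shows on which genes these arrested and these cycling cells differed, with vector, drug and transgene differing too.

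The 6 libraries held 16990374 to 19503457 counts each, and values are given as CPM, a gene's counts out of 1000000 counts of its library after scaling by the TMM factors of edgeR. Log2 differences are RAS minus DOT1L OE unless another pair is named. RNA of the mitochondrial genome took 3.64 to 3.87% of counts in RAS and 2.26 to 2.43% in DOT1L OE. On the first principal component, which held 81.5% of the variance, the RAS libraries lay at 66.8 to 69.2 and the DOT1L OE libraries at -70.2 to -66.9. Replicates of a group differed from one another by more than counting noise, with a chi-square per degree of freedom of 4.33 to 6.39. No library was thus a copy of another. These values do not tell separate cultures from separate libraries of the same RNA.

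The transgenes were checked first. HRAS (ENSG00000174775; GRCh38 chromosome 11, 532242 to 537321, minus strand), the small GTPase that the RAS vector encodes, stood at 492, 511 and 506 CPM in the RAS libraries and at 73.2, 81.7 and 83.3 CPM in the DOT1L OE libraries. HRAS was 6.30-fold higher in RAS (log2 2.66, SE 0.055, edgeR adjusted p = 1.82e-18), and the groups were far apart. DOT1L (ENSG00000104885; GRCh38 chromosome 19, 2163933 to 2232578, plus strand) stood at 82.2, 82.7 and 88.4 CPM in RAS and at 208, 206 and 191 CPM in DOT1L OE. The overexpressing cells therefore held 2.40-fold more DOT1L RNA than RAS cells (log2 -1.26, SE 0.057, edgeR adjusted p = 2.34e-13). Control libraries held 31.7 ± 2.33 CPM of DOT1L (mean ± SD, n = 3), below both groups. With an offset for transcript GC content, described below, the differences kept their directions at 4.37-fold for HRAS and 3.35-fold for DOT1L. Counts of HRAS and DOT1L hold reads of the transgene and of the genomic gene together.

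The cell cycle state was checked next. MKI67, the gene of the Ki-67 proliferation antigen, stood at 5.24, 5.82 and 5.68 CPM in RAS and at 128, 106 and 100 CPM in DOT1L OE. CCNA2, the cyclin of S phase and G2, stood at 2.56, 3.03 and 6.83 CPM in RAS and at 95.1, 81.4 and 86.7 CPM in DOT1L OE. Both genes separated the groups without overlap, by 20.03-fold for MKI67 (log2 -4.32, edgeR adjusted p = 5.72e-17) and by 21.4-fold for CCNA2 (log2 -4.42, edgeR adjusted p = 9.6e-14). The words arrested and cycling were thus matched by these markers of proliferation. Control cells, at 28.1 ± 2.72 CPM of MKI67, lay between the 2 groups.

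Fibroblast markers were read at high levels in both groups. The 12 fibroblast markers summed to 14810 to 15240 CPM in RAS and to 15270 to 15940 CPM in DOT1L OE. The median log2 difference of the 12, all tested, was -0.09, with 4 higher and 6 lower in RAS. COL1A1, the chain of type I collagen, stood at 7753, 7923 and 7661 CPM in RAS and 8398, 8800 and 8201 CPM in DOT1L OE. The surface receptors PDGFRB (log2 -1.30) and PDGFRA (log2 -0.84) were lower in RAS, as was the proteoglycan DCN (log2 -1.03). The 4 markers that were higher in RAS are not among these named genes, which therefore do not stand for the list.

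Markers of other cell types were low by comparison. Epithelial markers summed to 125.3 to 138.9 CPM in RAS and to 154.1 to 163.1 CPM in DOT1L OE, with 8 of 12 tested, 3 higher and 4 lower in RAS, the former 1 without RAS replicate 1 or DOT1L OE replicate 2. With an offset for transcript GC content, described below, 1 of the epithelial markers was higher and 5 were lower. Their median log2 difference was -0.30, and -0.63 with the offset. The 2 epithelial genes named next are not among those that were higher, and the sum in RAS came wholly from other members. CDH1, the epithelial cadherin, had no count in any RAS library, and KRT5, a basal keratin, stood at 0, 0 and 0 CPM in RAS and 0.960, 1.59 and 2.06 CPM in DOT1L OE. Endothelial markers summed to 125.2 to 133.4 CPM in RAS and to 144.8 to 158.2 CPM in DOT1L OE, with 7 of 9 tested, 4 higher and 2 lower in RAS. Both counts were the same with the offset, and the median log2 difference was 1.885, or 1.473 with it. The endothelial genes named next are not among the 4 that were higher. CDH5, the endothelial cadherin, had no count in any of the 6 libraries and ERG had none in RAS, and the receptor TEK alone stood at 62.3, 61.4 and 59.5 CPM in RAS and 136, 129.8 and 122 CPM in DOT1L OE. VWF, at 1.97, 0.242 and 0.128 CPM in RAS, was set by 1 library. Its log2 difference of 0.53, which did not pass the test, was -1.50 without RAS replicate 1. Leukocyte markers summed to 8.66 to 10.7 CPM in RAS and 2.57 to 2.88 CPM in DOT1L OE, with 4 of 14 tested and all 4 higher in RAS, while CD68, MS4A1 and ITGAM had no count in any of the 6. With the offset 3 were higher. Against control, 4 of the 14 passed the low-count filter in the RAS comparison and 1 in the DOT1L OE comparison. Members thus passed mostly through RAS, so the direction of the 4 was largely set by the filter. In bulk RNA, fewer cells of a type and less RNA per cell cannot be told apart.

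At an adjusted p under 0.05, 8947 of 13648 tested genes (65.6%) differed between RAS and DOT1L OE, 4415 higher in RAS (32.3%) and 4532 lower (33.2%). With a test against a minimum change of 1.5-fold, 4134 genes passed (30.3%), 2011 higher (14.7%) and 2123 lower (15.6%). The median difference over all tested genes was -0.03 and its median size 0.56 on the log2 scale. For 9525 genes (69.8%), the 3 RAS values and the 3 DOT1L OE values did not overlap. A gene that passes the test is therefore the rule here, and each list below is read against these shares. Scaling by library size alone, without TMM, moved the median of all genes to -0.31, so differences smaller than that depend on the scaling. Genes were read in 39 lists with 940 entries that have an ID, and each count below is over the members that passed the low-count filter. A member silent in 1 group passed only through the other group, so the counts do not speak for the members that were left out.

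Transcript GC content, the percentage of G and C bases in a gene's annotated transcripts, ran along with the differences. Tested genes were put in 10 groups of equal size by GC content. In the lowest group (up to 40.48%), the median log2 difference was -0.44, and in the highest (from 61.79%) it was 0.52. The gap between both ends was 0.96. Of the low-GC group, 11.6% of genes were higher in RAS and 51.2% lower, whereas of the high-GC group 59.2% were higher and 12.9% lower. Spearman's rho between the log2 difference and GC content was 0.369 across 13317 genes, and such genes do not stand for replicates.

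The GC trend was present in each library. Set against the mean of the 6, the high-minus-low gap was 0.451, 0.460 and 0.475 in the 3 RAS libraries and -0.569, -0.420 and -0.425 in the 3 DOT1L OE libraries. Against control, whose libraries both comparisons share, RAS ran from -0.63 in the lowest group to 0.61 in the highest, and DOT1L OE from -0.16 to 0.12. The cause of the trend was not tested. Transcript length moved with it, since the median log2 difference was 0.32 in the group with the shortest transcripts of 10 (median 753.6 bases) and -0.34 in that with the longest (median 4530 bases).

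To take account of the trend, each gene was also tested with an offset that removes the median difference of genes of like GC content. The medians of the 10 groups then ran from -0.02 to 0.02, and rho was 0.006. With the offset 8280 genes (60.7%) passed, 4176 higher in RAS (30.6%) and 4104 lower (30.1%). The same direction was called in both fits for 6801 genes (49.8%), 3405 higher in RAS (24.9%) and 3396 lower (24.9%). The length trend was reduced to 0.23 and -0.17 by the GC offset and was not removed. Opposite directions were called for 184 genes (1.35%). Both values are given below where the offset ended or turned the call of a named gene, and both counts of a list where it moved either by over 1.5 times.

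**Figure D1:**
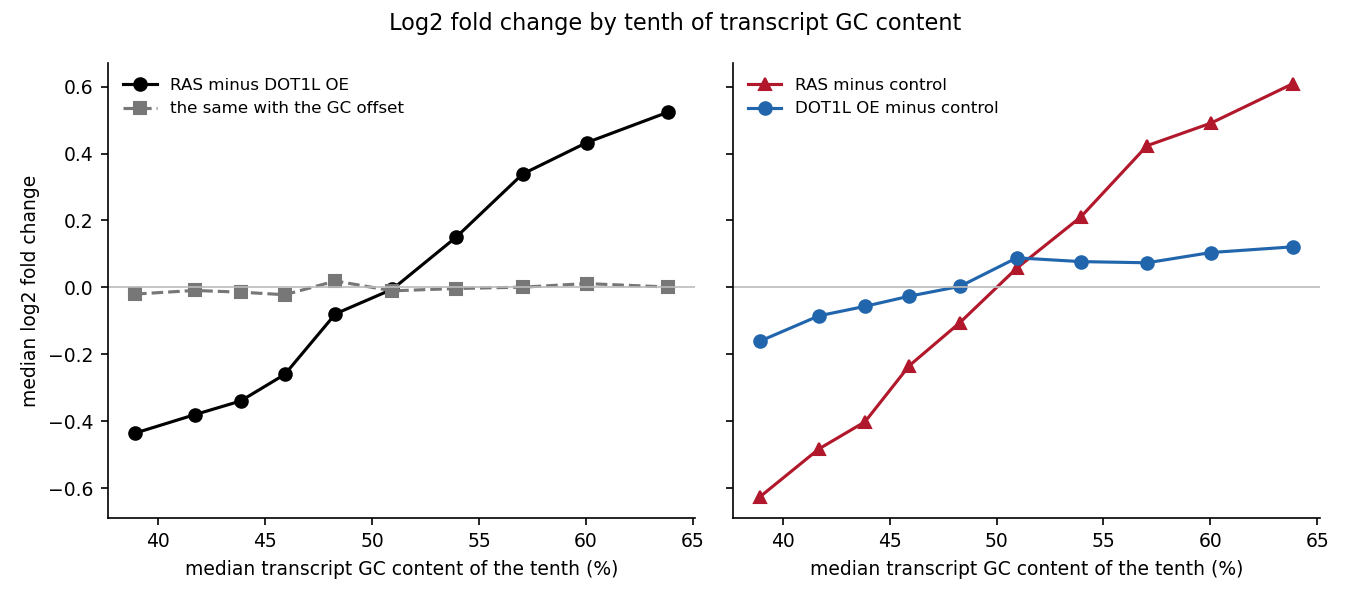
Median log2 difference (y axis) of tested genes in 10 groups by transcript GC content in percent (x axis, group median). The left panel shows RAS minus DOT1L OE, which climbs from -0.44 to 0.52 without the offset and stays between -0.02 and 0.02 with it, and the right panel shows RAS minus control (-0.63 to 0.61) and DOT1L OE minus control (-0.16 to 0.12), which share the control libraries.

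Genes of the study question showed large and small differences side by side. IL1A (ENSG00000115008; GRCh38 chromosome 2, 112773925 to 112784493, minus strand), the cell-surface interleukin that starts the SASP, stood at 286, 281 and 252 CPM in RAS and at 1.92, 0.654 and 1.26 CPM in DOT1L OE. This was a 216-fold difference (log2 7.75, SE 0.14, edgeR adjusted p = 1.63e-19), and no DOT1L OE library came near the RAS range. IL1B (ENSG00000125538; GRCh38 chromosome 2, 112829751 to 112836816, minus strand), its secreted relative, stood at 2986, 2947 and 2994 CPM in RAS and at 33.4, 32.97 and 39.6 CPM in DOT1L OE (83.8-fold, log2 6.39, edgeR adjusted p = 8.12e-24). DOT1L OE cells did hold more of both interleukins than control, where IL1A stood at 0.309 ± 0.0815 CPM and IL1B at 0.254 ± 0.221 CPM (log2 of DOT1L OE over control 2.02 for IL1A, edgeR adjusted p = 0.00449, and 7.06 for IL1B, edgeR adjusted p = 1.26e-21). By level, IL1B in DOT1L OE was thus above control but stayed far under RAS.

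Downstream cytokines were also far higher in RAS. IL6 (ENSG00000136244; GRCh38 chromosome 7, 22725884 to 22732002, plus strand), an inflammatory cytokine, stood at 193, 204 and 194 CPM in RAS and at 2.93, 3.22 and 4.72 CPM in DOT1L OE (53.6-fold, log2 5.74, edgeR adjusted p = 3.66e-19). DOT1L OE did not pass the test against control for IL6 (log2 0.25, edgeR adjusted p = 0.45, control 3.06 ± 0.330 CPM). CXCL8 (ENSG00000169429; GRCh38 chromosome 4, 73740519 to 73743716, plus strand), the neutrophil chemokine IL-8, stood at 2704, 2751 and 2669 CPM in RAS and at 71.1, 67.8 and 71.1 CPM in DOT1L OE (38.5-fold, log2 5.27, edgeR adjusted p = 1.99e-24). CXCL8 in DOT1L OE was above the control mean of 5.86 CPM (log2 3.58, edgeR adjusted p = 1.96e-23). For all 4 cytokines every RAS library lay above every DOT1L OE library.

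Some regulators of the SASP differed little, and the GC offset ended or turned their calls. CEBPB, a transcription factor of IL1A and IL6, stood at 402, 388 and 383 CPM in RAS and 283, 286 and 291 CPM in DOT1L OE (log2 0.44). With the offset its log2 difference was -0.11 (edgeR adjusted p = 0.0391), the opposite direction, and its transcripts have a GC content of 66.2%. Both groups held more CEBPB than control (81.8 ± 7.09 CPM). RELA, the p65 subunit of NF-kB, was called higher in RAS at log2 0.44 and with the offset stood at -0.04 (edgeR adjusted p = 0.542). STING1, the adaptor of cytosolic DNA sensing, was called at log2 0.34 and with the offset stood at -0.01 (edgeR adjusted p = 0.917). KDM2B, a demethylase reported to act on the DOT1L mark, was lower in RAS in both fits (log2 -0.46, -0.72 with the offset).

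**Figure D2:**
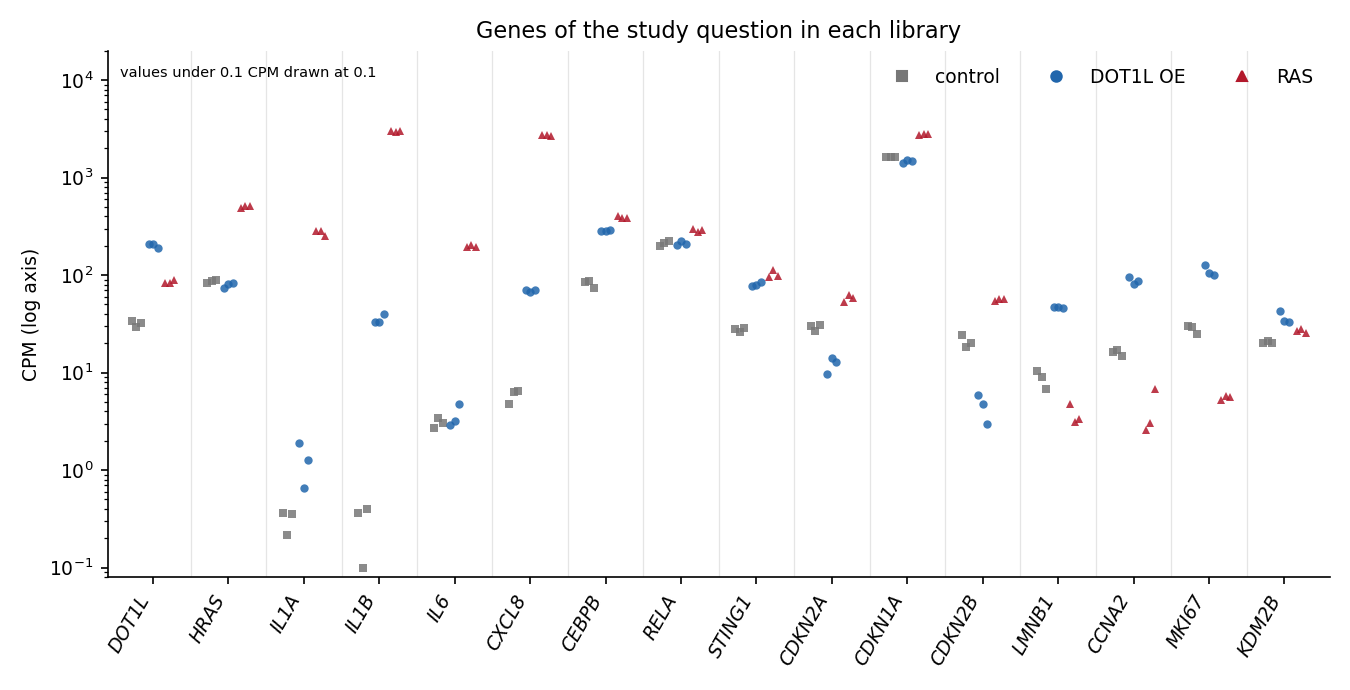
CPM (log axis) of the genes of the study question in each of the 3 RAS and 3 DOT1L OE libraries, with control libraries for reference, 1 point per library and values under 0.1 CPM drawn at 0.1. IL1A, IL1B, IL6 and CXCL8 lie far apart between RAS and DOT1L OE, MKI67, CCNA2 and LMNB1 lie apart in the opposite direction, and CEBPB, RELA and STING1 lie close together.

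The mitosis and spindle genes were lower in RAS without exception. All 64 tested of the 64 listed were lower in RAS, in both fits, with a median log2 difference of -3.60 beside -0.03 over all tested genes. CENPA, the histone variant of centromeres, stood at 0.119, 0.303 and 0.447 CPM in RAS and at 11.4, 11.2 and 11.7 CPM in DOT1L OE (log2 -5.29). TOP2A, the topoisomerase that untangles mitotic chromosomes, stood at 9.47, 9.69 and 9.25 CPM in RAS and at 205, 192 and 181 CPM in DOT1L OE (log2 -4.35). CDC20, an activator of the anaphase-promoting complex, stood at 10.9, 13.1 and 11.3 CPM in RAS and at 162, 167 and 160.3 CPM in DOT1L OE (log2 -3.80). The smallest difference was that of the checkpoint gene BUB3 at log2 -0.68 and the largest that of CENPA.

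The mitotic difference had a part on each side of control. In DOT1L OE against control, 63 of the 64 were higher and none lower, with a median of 2.00, where 59.9% of all tested genes passed, 29.9% higher and 29.9% lower. In RAS against control, 60 were lower and 2 higher, with a median of -1.53, where 64% of all tested genes passed, 32% lower and 31.9% higher. Both comparisons share the control libraries, so these counts are given side by side only. CDC20, for example, stood at 19.8 ± 1.33 CPM in control.

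DNA replication genes were also lower in RAS throughout. All 40 tested were lower without the offset and 39 of them with it, at medians of -2.27 and -2.24. RRM2, a subunit of ribonucleotide reductase, stood at 28.8, 27.1 and 27.1 CPM in RAS and at 378, 376 and 383 CPM in DOT1L OE (log2 -3.78). TK1, the thymidine kinase of S phase, stood at 25.6, 29.6 and 30.4 CPM in RAS and at 150.1, 176 and 172 CPM in DOT1L OE (log2 -2.55). The helicase subunit MCM4 (log2 -2.19) and the reductase subunit RRM1 (log2 -2.41) lay between the extremes, which were PRIM1, the primase, at -4.48 and RPA2, a single-strand binding protein, at -0.38. All 40 were higher in DOT1L OE than in control (median 1.35), and 30 were lower and 2 higher in RAS than in control (median -0.93).

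**Figure D3:**
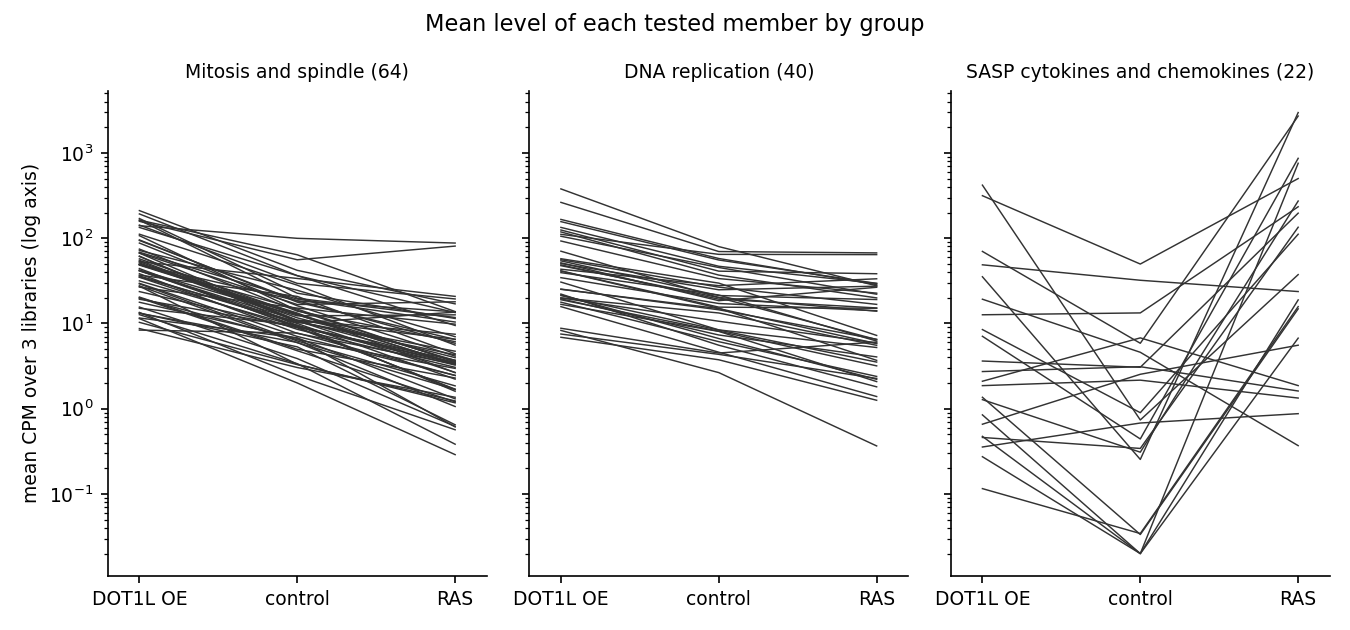
Mean CPM over 3 libraries (log axis) in DOT1L OE, control and RAS of the tested mitosis and spindle genes (64), DNA replication genes (40) and SASP cytokines (22), 1 line per gene, with values of 0 drawn at the floor of 0.02 CPM. The mitosis and replication lines end lower in RAS than in DOT1L OE, and most SASP cytokine lines are highest in RAS.

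Sequences upstream of mitotic genes were read because these members moved together, and those of CENPA and DEPDC1, which are among the 10 largest falls, of CDC20 and MKI67 and of the replication gene TK1 are shown, a choice made after their values were seen. The CHR element, with the letters TTTGAA, and the CCAAT box are known from promoters of mitotic genes, where the CHR binds the repressor complexes of the RB family. The E2F element, TTCNCGC here, is known from replication genes. In the windows of RefSeq (GRCh38.p14) from 250 bases before to 50 after each start, CHR letters were found on either strand in 15.2% of 35116 windows. Of 55 mitosis genes tested with a window, 40 (72.7%) held CHR letters, against 13.8% of all 10373 tested genes with a window and 1 of 34 replication genes. E2F letters were found in 12.2% of windows, in 23 of 34 replication genes (67.6%), in 13 of 55 mitosis genes (23.6%) and in 23.1% of all tested genes. A match of letters is a description of the window, not a bound site. The 120 bases before the RefSeq start follow, with CHR and CCAAT letters (either strand) in capitals for the first 4 and E2F letters for TK1:
CDC20 (chr1:43358861-43358980, plus strand): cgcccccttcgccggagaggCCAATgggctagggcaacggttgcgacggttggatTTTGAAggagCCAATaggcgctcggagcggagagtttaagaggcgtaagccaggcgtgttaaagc
CENPA (chr2:26785936-26786055, plus strand): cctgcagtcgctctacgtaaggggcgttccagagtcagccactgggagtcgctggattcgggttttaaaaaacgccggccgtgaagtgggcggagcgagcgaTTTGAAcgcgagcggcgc
DEPDC1 (chr1:68497083-68497202, minus strand): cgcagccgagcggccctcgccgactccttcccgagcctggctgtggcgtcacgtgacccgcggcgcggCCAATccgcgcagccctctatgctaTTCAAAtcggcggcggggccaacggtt
MKI67 (chr10:128126424-128126543, minus strand): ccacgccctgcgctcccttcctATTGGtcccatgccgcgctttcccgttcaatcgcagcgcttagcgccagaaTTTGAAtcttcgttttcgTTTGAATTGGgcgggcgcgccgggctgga
TK1 (chr17:78187053-78187172, minus strand): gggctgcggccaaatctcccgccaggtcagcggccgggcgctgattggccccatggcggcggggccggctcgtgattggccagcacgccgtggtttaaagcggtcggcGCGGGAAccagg
In CDC20 the CHR letters begin at -65 from the start, between CCAAT letters at -100 and -55. CENPA holds CHR letters at -18 and no CCAAT letters in these bases. In DEPDC1, a gene of mitotic progression, the CHR letters at -27 lie on the other strand. MKI67 holds CHR letters at both -47 and -29, and the latter overlap CCAAT letters on the other strand at -24. The E2F letters of TK1, which has another listed start, begin at -12 on the other strand.

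Over all 1430 tested genes with CHR letters the median log2 difference was -0.27 (-0.14 with the GC offset), with 23.3% higher and 45.8% lower in RAS. Tested genes without CHR letters had a median of 0.01 (0.03 with the offset), with 34.9% higher and 32.3% lower. The mitosis genes are among the former, and no test was run on these shares.

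The CDK inhibitors did not move as 1 group. CDKN2A (ENSG00000147889; GRCh38 chromosome 9, 21967752 to 21995301, minus strand), which encodes p16 and ARF, stood at 53.3, 63.05 and 57.8 CPM in RAS and at 9.76, 14.1 and 12.96 CPM in DOT1L OE (4.69-fold, log2 2.23, edgeR adjusted p = 4.06e-12). CDKN2B, which encodes p15 beside it, stood at 53.8, 56.4 and 56.2 CPM in RAS and at 5.87, 4.81 and 2.99 CPM in DOT1L OE (12.2-fold, log2 3.61). CDKN1A, which encodes p21, stood at 2767, 2810 and 2818 CPM in RAS and at 1400, 1522 and 1493 CPM in DOT1L OE (1.89-fold, log2 0.92, 0.50 with the offset). All 3 were higher in RAS without overlap. In DOT1L OE the levels of CDKN2A (log2 -1.24 against control) and CDKN2B (log2 -2.19) were below control, which held 29.2 ± 2.29 and 20.8 ± 3.04 CPM.

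Other inhibitors went the opposite way. CDKN2C, which encodes p18, stood at 1.73, 1.88 and 1.85 CPM in RAS and at 32.2, 35.4 and 36.3 CPM in DOT1L OE (log2 -4.25). CDKN1B, encoding p27, was lower in RAS at log2 -1.92, CDKN1C, encoding p57, at -1.44 and the phosphatase CDKN3 at -4.25. CDKN2D, encoding p19, did not pass without the offset (log2 -0.23, edgeR adjusted p = 0.172) and was lower with it (log2 -0.70).

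Of 25 tested genes of the G1 cyclins, their kinases and the RB family, 6 were higher and 17 lower in RAS (median -1.41). CCND1, the cyclin of G1, stood at 1536, 1439 and 1537 CPM in RAS and at 549.6, 529.8 and 502 CPM in DOT1L OE (log2 1.51). CCND1 was lower in DOT1L OE than in control (1763 ± 35.1 CPM, log2 -1.74), so cycling DOT1L OE cells held the least of the 3 groups. E2F7, a repressive E2F, stood at 111, 91.2 and 103 CPM in RAS and at 18.6, 20.2 and 15.4 CPM in DOT1L OE (log2 2.49), whereas its relative E2F8 was at 0, 0.121 and 0 CPM in RAS and 5.49, 3.46 and 5.33 CPM in DOT1L OE (log2 -6.65). E2F7 and E2F8 thus separated the groups in opposite directions. The cell-cycle activator MYBL2 (log2 -2.87) and the kinase CDK6 (log2 -1.77) were lower in RAS.

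DNA repair genes were lower in RAS for 22 of 26 tested and higher for none (median -1.49), and for 19 lower and 3 higher with the GC offset. FANCD2 (log2 -3.22) and FANCI (log2 -2.95), the pair that is ubiquitinated at stalled forks, and the recombination gene BRCA1 (log2 -2.29) were among them. H2AX, the histone variant phosphorylated at breaks, stood at 80.7, 92.6 and 83.9 CPM in RAS and at 216, 222 and 219.7 CPM in DOT1L OE (log2 -1.36). The kinases ATM (log2 0.06) and ATR (log2 -0.20), which signal the breaks, did not pass the test.

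Genes of the nuclear lamina and chromatin architecture were mostly lower in RAS, 24 of 35 tested against 5 higher (median -0.63). LMNB1 (ENSG00000113368; GRCh38 chromosome 5, 126776623 to 126837020, plus strand), the B-type lamin whose loss marks senescent nuclei, stood at 4.77, 3.15 and 3.32 CPM in RAS and at 46.6, 46.7 and 45.9 CPM in DOT1L OE (12.4-fold lower in RAS, log2 -3.63, edgeR adjusted p = 2.53e-14). DOT1L OE cells held more LMNB1 than control cells at 8.74 ± 1.81 CPM (log2 2.41). The lamina partners LBR (log2 -2.33) and TMPO (log2 -2.79) were lower as well. HMGB2 (log2 -3.66) and HMGB1 (log2 -1.80), DNA-bending proteins of chromatin, were lower, while HMGA2, a protein of senescence heterochromatin foci, stood at 949.9, 948 and 970 CPM in RAS and at 219.9, 226 and 214 CPM in DOT1L OE (log2 2.11). HMGA2 in DOT1L OE was also under the control level of 691 ± 17.5 CPM. The histone variant H2AZ1 (log2 -2.29) and the H3K27 methyltransferase EZH2 (log2 -2.25) were lower in RAS.

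Histone genes of the replication-dependent clusters went against the other S phase genes. Of 31 listed, 16 had an ID and 10 were tested, and 8 of them were higher in RAS and 1 lower (8 and 2 with the offset), with H2AC20 the one that was lower, a call that was lost without RAS replicate 3 or DOT1L OE replicate 1. H2BC12 stood at 183, 206 and 192 CPM in RAS, 46.1, 53.9 and 50.01 CPM in DOT1L OE and 205 ± 2.08 CPM in control. H2AC6 stood at 87.3, 93.8 and 80.8 CPM in RAS, 24.5, 23.3 and 21.01 CPM in DOT1L OE and 97.2 ± 5.73 CPM in control. DOT1L OE was the low group in both cases, at log2 -2.03 and -2.08 against control. These transcripts normally end without a poly(A) tail and the genes are near-identical copies, so the counts hold an uncertain share of their RNA.

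Among the SASP cytokines and chemokines, 22 of the 28 with an ID were tested, of which 15 were higher and 3 lower in RAS in both fits (median 3.96). CSF3, the granulocyte colony-stimulating factor, stood at 760.2, 777 and 734 CPM in RAS and at 0.906, 0.747 and 0.889 CPM in DOT1L OE (log2 9.79). CSF2, its granulocyte-macrophage counterpart, stood at 132, 138 and 134 CPM in RAS and at 0.587, 0.327 and 0.468 CPM in DOT1L OE (log2 8.18). CXCL1, a neutrophil chemokine, stood at 849.7, 886 and 859 CPM in RAS and at 6.83, 6.40 and 8 CPM in DOT1L OE (log2 6.92). The chemokine CCL20 (log2 7.03) and the IL-6 relative LIF (log2 4.2) were likewise higher. Against control, 11 of 18 tested were higher and 2 lower in DOT1L OE, with a median of 2.04.

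The 3 cytokines that were lower in RAS were named after their values were seen. IL24, a cytokine of the IL-10 family, stood at 33.2, 40.9 and 38.1 CPM in RAS and at 407, 425 and 426 CPM in DOT1L OE (log2 -3.49, edgeR adjusted p = 4.63e-19). Control cells held 0.739 ± 0.208 CPM of IL24, under both groups (log2 of DOT1L OE over control 9.13). CXCL12, a stromal chemokine, stood at 0.536, 0.0606 and 0.510 CPM in RAS and at 20.9, 17.5 and 19.4 CPM in DOT1L OE (log2 -5.69). CSF1, the macrophage growth factor, was lower at log2 -1.05. For CCL2, a monocyte chemokine, the groups overlapped at 1.31, 2.06 and 2.23 CPM in RAS and 2.61, 1.77 and 1.92 CPM in DOT1L OE.

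Upstream sequences of the SASP were read for NF-kB letters, GGGA and TTCC with any 2 bases between them, on either strand. These were found in 1.6% of all windows and in 2.2% of all tested genes with a window. Of the 17 SASP cytokines with a window, 8 (47.1%) held NF-kB letters, as did 6 of 20 genes (30.0%) of the NF-kB list and 1 of 55 mitosis genes. The AP-1 letters TGANTCA were found in 7.7% of windows, in 7.3% of all tested genes with a window and in 3 of the 17 cytokines (17.6%). The 120 bases before the start of IL6 and CXCL1, which stood 53.6-fold and 122-fold higher in RAS, are shown with NF-kB letters in capitals:
IL6 (chr7:22727080-22727199, plus strand): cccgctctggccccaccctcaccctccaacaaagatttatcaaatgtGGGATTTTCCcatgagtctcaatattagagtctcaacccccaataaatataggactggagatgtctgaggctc
CXCL1 (chr4:73869273-73869392, plus strand): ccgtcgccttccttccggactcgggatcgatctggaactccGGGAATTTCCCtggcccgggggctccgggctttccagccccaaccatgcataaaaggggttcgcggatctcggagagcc
In IL6 the NF-kB letters begin at -73, and in CXCL1 matches on both strands begin at -79 and -78 and overlap. Over all 229 tested genes with NF-kB letters the median log2 difference was -0.01, with 34.1% higher and 33.6% lower in RAS, close to the shares over all tested genes.

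Of the SASP proteases and their inhibitors, all 17 tested of the 19 with an ID passed the test, 14 higher and 3 lower in RAS (median 0.96). MMP3, stromelysin, stood at 3459, 3752 and 3528 CPM in RAS and at 154, 155 and 159.7 CPM in DOT1L OE (log2 4.51). MMP1, the interstitial collagenase, stood at 6258, 6480 and 6479 CPM in RAS and at 525, 511 and 536 CPM in DOT1L OE (log2 3.61). SERPINB2, an inhibitor of plasminogen activators, stood at 433, 432 and 461 CPM in RAS and at 20.9, 21.7 and 28.2 CPM in DOT1L OE (log2 4.22). RAS was the high group for all 3 without overlap, and SERPINB2 in DOT1L OE was below control (log2 -0.55). The urokinase PLAU was higher at log2 1.55, and the aggrecanase ADAMTS1 was lower at -1.70.

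The growth factors of the SASP were split. Of 27 tested, 17 were higher and 9 lower in RAS, and 15 and 8 kept their direction with the GC offset. Higher were NRG1, a ligand of ERBB receptors (log2 2.78), the glycoprotein hormone STC1 (log2 2.49), the lipase inhibitor ANGPTL4 (log2 3.78) and GDF15, a stress cytokine (log2 2.16). STC1 reached 2698, 2586 and 2700 CPM in RAS against 490.2, 461 and 467 CPM in DOT1L OE. Lower were FGF7, the keratinocyte growth factor of mesenchyme (log2 -2.76), and KITLG, the stem cell factor (log2 -1.90).

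Of the interleukin-1 receptors and relays, 6 of 15 tested were higher and 6 lower in RAS, 8 and 5 with the offset and 6 and 7 with library size scaling. The kinases IRAK2 (log2 2.72) and IRAK1 (log2 1.22), which carry the receptor signal, were higher, as was the receptor antagonist IL1RN (log2 1.89). The receptor IL1R1 (log2 -0.60) and the kinase IRAK4 (log2 -1.46) were lower in both fits.

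NF-kB subunits, inhibitors and targets were higher in RAS for 19 of 24 tested, of 26 with an ID, and lower for 2 (median 1.16), and 17 and 2 with the offset. Without RAS replicate 2 the number that was lower was 4. C3, the third complement component, stood at 398, 424 and 402 CPM in RAS and at 2.51, 2.19 and 1.73 CPM in DOT1L OE (log2 7.57). Control cells held 13.7 ± 0.538 CPM of C3, more than DOT1L OE cells (log2 of DOT1L OE over control -2.67). ICAM1, an adhesion receptor of leukocytes, stood at 359, 370.5 and 369.6 CPM in RAS and at 29.8, 28.1 and 29.5 CPM in DOT1L OE (log2 3.65). ICAM1 too was lower in DOT1L OE than in control (log2 -1.16), so the NF-kB targets C3 and ICAM1 stood in another order than CXCL8, for which DOT1L OE was above control. The inhibitor NFKBIA (log2 1.34), the RNase ZC3H12A (log2 4.53) and the coactivator NFKBIZ (log2 2.30), all induced by NF-kB, were higher in RAS.

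Among AP-1 factors, 5 of 9 tested were higher in RAS and 1 lower, and 4 and 2 with the offset. FOSB stood at 14, 12.4 and 11.8 CPM in RAS and at 1.92, 1.21 and 1.92 CPM in DOT1L OE (log2 2.91), and JUNB was higher at log2 1.29. JUN was called at log2 0.38 and was 0.03 with the offset (edgeR adjusted p = 0.604). FOSL2 did not pass without the offset (log2 -0.01, edgeR adjusted p = 0.952) and was lower with it (log2 -0.34, edgeR adjusted p = 0.000372). Of 4 C/EBP genes, 2 were higher and 1 lower, and 1 and 1 with the offset. Besides CEBPB, CEBPD was higher at log2 1.31 (0.76 with the offset), DDIT3 did not pass (log2 0.37), and CEBPG was lower at -0.51 without the offset only.

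Genes of cytosolic DNA sensing were mixed, with 6 of 11 tested higher and 2 lower in RAS, 3 and 3 with the offset, and 2 and 3 with library size scaling. CGAS, the DNA sensor, stood at 5.18, 4.72 and 5.74 CPM in RAS and at 18.4, 17.04 and 15.7 CPM in DOT1L OE (log2 -1.71). ENPP1, which hydrolyses the messenger made by CGAS, was higher in RAS (log2 1.38), and the kinase TBK1 was higher at 0.45, a call that was lost without RAS replicate 1 (log2 0.31). Interferon-stimulated genes were lower in RAS for 13 of 22 tested, of 30 listed, and higher for 4 (median -0.64), and lower for 10 and higher for 2 with the offset. The number that was higher changed with single libraries, at 1 without RAS replicate 1, DOT1L OE replicate 2 or DOT1L OE replicate 3. OAS3, an antiviral RNA sensor (log2 -2.01), and IFIT5 (log2 -1.27) were lower, and IFI6 was higher (log2 1.63).

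**Figure D4:**
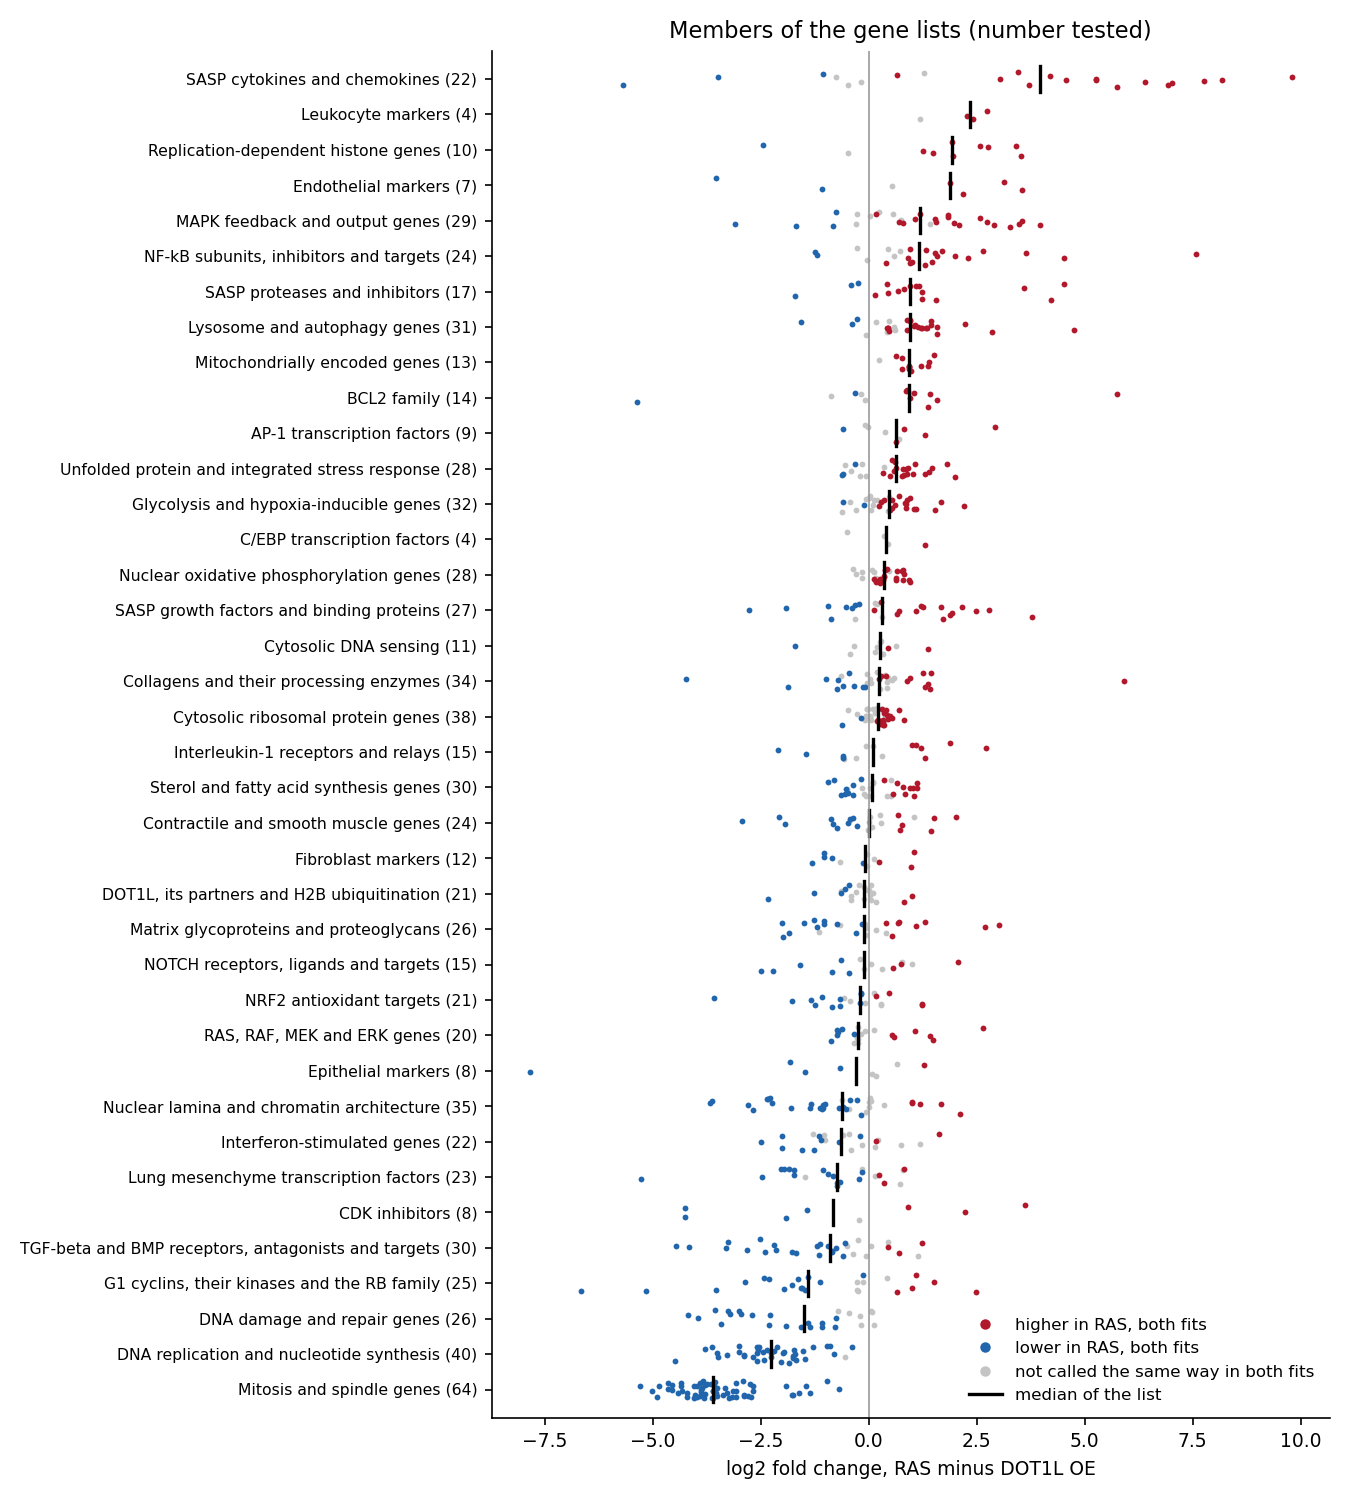
Log2 difference (RAS minus DOT1L OE, x axis) of every tested member of the gene lists described here, 1 point per gene, with the number tested in parentheses, red for genes higher and blue for genes lower in RAS in both fits, grey for the others and a black bar for the list's median. The mitosis list has the lowest median at -3.60 and the SASP cytokine list the highest at 3.96.

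Feedback and output genes of the MAPK pathway, which RAS drives, were higher in RAS for 21 of 29 tested and lower for 6 (median 1.18), and 19 and 4 with the offset. DUSP6, the phosphatase that inactivates ERK, stood at 287, 314 and 298 CPM in RAS and at 18.9, 20.2 and 18.4 CPM in DOT1L OE (log2 3.96). In DOT1L OE it was under the control level of 67.7 ± 3.29 CPM (log2 -1.81). IER3, an early ERK target, stood at 1912, 2017 and 1970 CPM in RAS and at 156, 175 and 169 CPM in DOT1L OE (log2 3.55). EGR1, an early-response transcription factor (log2 2.90), and the pathway inhibitors SPRY2 (log2 2.58) and SPRY4 (log2 1.98) were higher. DUSP10, a phosphatase of p38 and JNK, stood at 16.9, 15.4 and 16.2 CPM in RAS and at 146, 136 and 131 CPM in DOT1L OE (log2 -3.09), and the phosphatase DUSP1 was lower in RAS as well (log2 -1.69).

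In the core of the pathway, 6 of 20 genes were higher and 9 lower in RAS, and 7 and 6 with the offset, and 10 and 4 with the offset for GC content and length together. Besides HRAS, the relative RRAS (log2 1.48) and the ERK gene MAPK3 (log2 1.42) were higher. Among DOT1L, its partners and the H2B ubiquitination genes, 3 of 21 were higher and 9 lower, and 6 and 8 with the offset. The elongation genes ELL (log2 1.00, 0.54 with the offset) and CDK9 (log2 0.81, 0.36 with the offset) were higher in RAS. RNF20, the H2B ubiquitin ligase that acts ahead of DOT1L, was lower (log2 -0.55, -0.36 with the offset).

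The largest rises in RAS included genes of the cornified envelope of the epidermis and cytokines, grouped here after their values were seen. They were chosen by size among genes of at least 10 CPM in the higher group that held their direction in both fits, so their size is a description. LCE1F (ENSG00000240386; GRCh38 chromosome 1, 152775140 to 152777024, plus strand), a protein of the cornified envelope, stood at 375, 402 and 385 CPM in RAS and had no count in DOT1L OE, at least 7945-fold higher when 3 counts summed over the 3 libraries are taken as the floor. IVL, involucrin of the same envelope, stood at 22.8, 29.01 and 30.7 CPM in RAS and had no count in DOT1L OE (at least 563-fold higher). MRGPRX3, a G protein-coupled receptor, stood at 27.2, 35.4 and 29.4 CPM in RAS with no count in DOT1L OE (at least 629-fold higher). LCE2C and LCE2D are near-identical copies whose reads the counting could split, so both are uncertain as single genes, with LCE2C at 95.6, 106 and 118 CPM in RAS and 0, 0.0467 and 0.0468 CPM in DOT1L OE. LCE2D stood at 12.1, 15.1 and 16.1 CPM in RAS with no count in DOT1L OE (at least 295-fold higher). TNFSF15, a cytokine of the TNF family, stood at 158, 143 and 147 CPM in RAS and at 0.213, 0.0934 and 0.281 CPM in DOT1L OE (log2 9.53). The elastase inhibitor PI3 (log2 8.28), the long noncoding RNA LINC02154 (log2 9.68) and CSF3 and CSF2, given above, completed the 10.

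The largest falls, chosen in the same way, held mitotic genes beside genes of other kinds. UNC5C, a netrin receptor, stood at 0.238, 0 and 0 CPM in RAS and at 13.2, 14.5 and 11.3 CPM in DOT1L OE (log2 -7.21). SMAD9, a transducer of BMP signals, stood at 0, 1.27 and 0.128 CPM in RAS and at 28.3, 26.9 and 27.1 CPM in DOT1L OE (log2 -5.85). HOXA5, a homeobox gene of the lung mesenchyme, stood at 0.536, 0.121 and 0.447 CPM in RAS and at 14.8, 13.1 and 15.02 CPM in DOT1L OE (log2 -5.26). For each of these 3 genes at least 2 RAS libraries lay under 1 CPM and all DOT1L OE libraries lay above 10 CPM. SCG2, a granin (log2 -5.65), CPXM1, a carboxypeptidase-like protein (log2 -5.44), and the mitotic genes DEPDC1 (log2 -5.08), NUF2 (log2 -5.01) and KIF20A (log2 -4.91) were the others, besides CXCL12 and CENPA.

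**Figure D5:**
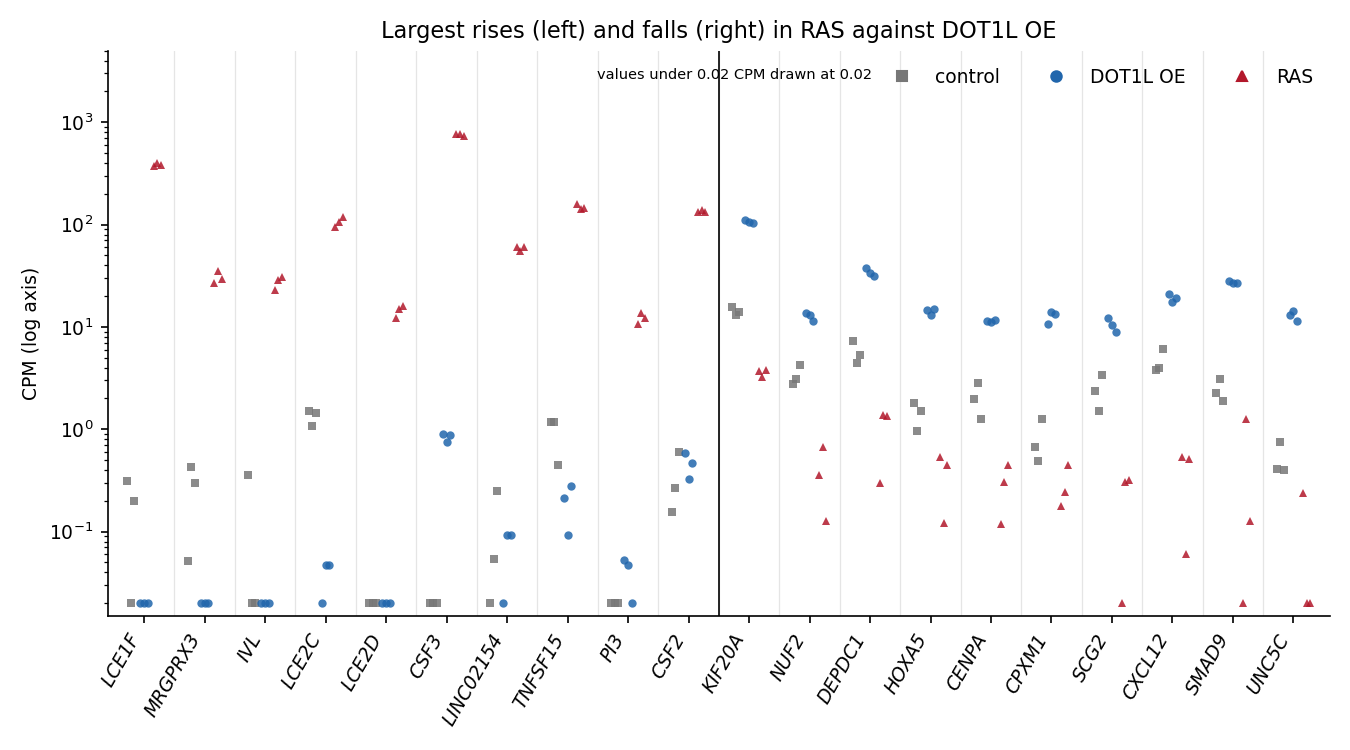
CPM (log axis) in each RAS and DOT1L OE library of the 10 largest rises and the 10 largest falls in RAS, 1 point per library, with control libraries for reference and values under 0.02 CPM drawn at 0.02. LCE1F lies between 375 and 402 CPM in RAS with no count in DOT1L OE, and SMAD9 lies between 26.9 and 28.3 CPM in DOT1L OE with 0 to 1.27 CPM in RAS.

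TGF-beta and BMP genes were lower in RAS for 22 of 30 tested and higher for 4 (median -0.90). The ID genes, direct targets of BMP signals that block differentiation factors, were among the 4 members of smallest p. ID3 stood at 62.2, 58.2 and 58.8 CPM in RAS and at 397, 439 and 417 CPM in DOT1L OE (log2 -2.81). ID1 stood at 55, 37.98 and 49.2 CPM in RAS and at 253, 270.1 and 282 CPM in DOT1L OE (log2 -2.51). ID2 stood at 6.32, 4.84 and 3.77 CPM in RAS and at 107, 105 and 115 CPM in DOT1L OE (log2 -4.45). DOT1L OE was the high group throughout, above control by log2 3.88 for ID3, 3.81 for ID1 and 2.91 for ID2. The inhibitory SMAD6 (log2 -3.30) and the activin antagonist FST (log2 -2.15) were lower in RAS, and the ligand BMP4 was higher (log2 1.23).

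Transcription factors of the lung mesenchyme were lower in RAS for 15 of 23 tested and higher for 4 (median -0.74). PRRX2 stood at 21.7, 25.4 and 25.5 CPM in RAS and at 131, 129 and 141 CPM in DOT1L OE (log2 -2.47). TCF21 (log2 -2.02), TBX5 (log2 -1.96) and FOXF1 (log2 -0.74) were lower, and HOXB5 was higher (log2 0.82). In the NOTCH list 4 of 15 were higher and 6 lower, and 3 and 8 with the offset. The ligand DLL4 stood at 40.8, 46.1 and 55.3 CPM in RAS and at 272, 267 and 259 CPM in DOT1L OE (log2 -2.50), with 8.95 ± 0.942 CPM in control. JAG1, another ligand, was lower in RAS at log2 -2.21.

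Collagens and their processing enzymes were higher for 18 of 34 tested and lower for 11, evenly split at 13 and 13 with the GC offset, and 13 and 15 with library size scaling. COL6A2, a chain of type VI collagen, stood at 6330, 6498 and 6428 CPM in RAS and at 2317, 2469 and 2422 CPM in DOT1L OE (log2 1.41). COL15A1 of basement membranes (log2 -4.22) was lower in RAS. Of 26 matrix glycoprotein genes, 9 were higher and 12 lower. POSTN, periostin (log2 3.02), and the hyaluronan synthase HAS2 (log2 2.69) were higher, and THBS1, thrombospondin (log2 -1.19), the proteoglycan VCAN (log2 -1.97) and ELN, elastin (log2 -2.00), were lower. Contractile genes were split as well, 8 of 24 higher and 10 lower (7 and 14 with the offset), with ACTG2, an enteric actin, higher (log2 1.51) and CDH2, N-cadherin, lower (log2 -2.93).

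Lysosome and autophagy genes were higher in RAS for 25 of 31 tested and lower for 3, and 22 and 5 with the offset (median 0.95, 0.82 with the offset). CTSS, a cysteine cathepsin, stood at 86.5, 86.6 and 83.7 CPM in RAS and at 3.84, 2.99 and 2.76 CPM in DOT1L OE (log2 4.74). CTSK, the cathepsin that cleaves collagen, stood at 247, 267 and 243 CPM in RAS and at 34.8, 33.3 and 36.4 CPM in DOT1L OE (log2 2.85). GLB1, the lysosomal beta-galactosidase read out by the senescence stain, stood at 149, 154 and 137 CPM in RAS and at 78.4, 81.9 and 76.6 CPM in DOT1L OE (log2 0.89). NPC1, the cholesterol exporter, went the other way at 90.7, 91.1 and 84.9 CPM in RAS, 267, 274 and 251 CPM in DOT1L OE and 35.8 ± 4.96 CPM in control (log2 -1.58).

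Genes of energy metabolism were read next. Glycolysis and hypoxia-inducible genes were higher for 22 of 32 tested and lower for 3 (21 and 6 with the offset, 16 and 10 with library size scaling), with PGK1, phosphoglycerate kinase, at log2 1.11 and ENO2, an enolase, at 1.54. Nuclear genes of oxidative phosphorylation were higher for 20 of 28 and lower for 2, at a median of 0.35, and the 2 that were lower were 0 with the GC offset and 0 to 2 without each library in turn. With library size scaling 11 were higher and 6 lower. The mitochondrially encoded genes were higher for 12 of 13 and lower for none, with MT-CO2, a subunit of cytochrome c oxidase, at 8898, 8495 and 8755 CPM in RAS and 3409, 3237 and 3302 CPM in DOT1L OE (log2 1.39). Sterol and fatty acid synthesis genes were split, 12 of 30 higher and 10 lower, and 11 and 12 with library size scaling. Ribosomal protein genes were higher for 23 of 38 and lower for 4 (7 without DOT1L OE replicate 1), but 7 and 16 with library size scaling and 10 and 13 with an offset for GC content and length together, so no direction is given for them.

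Stress and survival genes completed the comparison. Genes of the unfolded protein and integrated stress response were higher in RAS for 19 of 28 tested and lower for 6 (21 and 3 with the offset), with HSPA5, the chaperone BiP, at 938, 976 and 946 CPM in RAS and 363, 365 and 357 CPM in DOT1L OE (log2 1.39). The pseudokinase TRIB3 was higher at log2 1.81. NRF2 targets were lower for 11 of 21 and higher for 5, with SLC7A11, the cystine importer, at 3.16, 2.91 and 3.45 CPM in RAS and 39.4, 37.6 and 36.6 CPM in DOT1L OE (log2 -3.58). The thioredoxin reductase TXNRD1 (log2 -1.77) and the quinone reductase NQO1 (log2 -1.09) were lower, while FTL, the ferritin light chain, was higher (log2 1.24). In the BCL2 family 9 of 14 were higher and 2 lower, and 8 and 3 with the offset. BCL2L1, which encodes the survival protein BCL-XL, stood at 510.2, 503 and 515 CPM in RAS and at 185, 208 and 197 CPM in DOT1L OE (log2 1.37). BCL2 itself was nearly unread in RAS at 0, 0.182 and 0 CPM, against 2.03, 3.74 and 2.53 CPM in DOT1L OE (log2 -5.36).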

How the data were processed

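RNA of IMR90 cells was sequenced from 12 libraries in 4 groups, of which the 3 RAS and the 3 DOT1L OE libraries were compared. The deposited files hold raw counts per gene ID, which the authors made from reads aligned to GRCh38. STAR 2.6.1 and DESeq2 2 stand in the submitters' processing notes, and no strand setting is given in the sources used here, so overlapping and antisense genes cannot be told apart. Gene names came from a table of GENCODE release 44, which held 93.5% of IDs, and 0.596 to 0.65% of counts fell on IDs without a symbol.

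Counts of the 6 libraries were filtered with filterByExpr, scaled by TMM and tested with edgeR's quasi-likelihood test, two-sided, with Benjamini-Hochberg adjustment over all 13648 tested genes (R 4.3.3, edgeR 4.0.16, limma 3.58.1). The GC offset was the median log2 difference per library over 20 bins of transcript GC content. The test was checked on simulated data in which few genes were changed. With a GC trend added, genes that carried only this trend were counted as unchanged, and most calls without the offset fell on them. Few calls with the offset did, since the offset removes a trend of that kind. The outcome follows from this setting and says nothing on the cause of the trend in the data. Calls without the offset are to be read beside the GC trend. Same-numbered libraries of both groups correlated at 0.0185 to 0.039 and the other pairs at -0.0289 to -0.00461. Values this small do not settle whether the numbers pair the libraries, and the fit had no block. DESeq2 1.42.0, voom, other scalings, filters and offsets, all 4 groups in 1 fit, and leaving out each library were tried as alternatives. Named genes were those of the study question, the 10 largest rises and falls (at least 10 CPM in the higher group, called alike in both fits, no overlap), and per list up to 4 members of smallest p. Other genes of a list were named after their values were seen. Members and lists were chosen with earlier results of these data known. Of these, 1 list and some single genes are not reported here.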

Additional observations from a re-analysis of the deposited data

How the results depend on the processing

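The count of called genes (8947) was 8238 to 9110 under another filter, DESeq2 size factors or Wald test, voom, all 4 groups in 1 fit or an offset, and 8240 to 8755 when each library was left out in turn. With a replicate block, which pairs libraries by number, it was 8960 and no call turned. Every library correlated best with its own number, a hint from the data only. Library size scaling gave 9354 calls, 3006 higher and 6348 lower in RAS, and over 1.5-fold 1273 higher and 3274 lower, where TMM gave 2011 and 2123. It turned 45 calls, the GC offset 184, the GC and length offset 296 and the GC offset with replicate block 196. The gap of the GC trend (0.959) was 0.883 with the longest transcript, 0.887 for genes of at least 10 CPM and 0.923 to 1.001 without each library.

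Each named gene was read once per alternative setting, so a gene can count several times. Among these values, 20 turned direction, 12 calls were lost, 9 were gained and 3374 kept direction and side of the threshold. With the GC offset, the GC and length offset and the GC offset with replicate block, CEBPB was at -0.11 in all 3 and RELA at -0.04, -0.11 and -0.04. STING1 was at -0.01 with the GC offset, without and with the block, and CEBPG at 0.03 and RPS15 at -0.11 with the GC and length offset. FOSL2 was at 0.01 with DESeq2 size factors and the DESeq2 Wald test, 0.00 with 4 groups in 1 fit and -0.07 to 0.06 without each library, but passed as lower in RAS at -0.28 with library size scaling, -0.34 with the GC offset, -0.17 with the GC and length offset and -0.35 with the GC offset and block. VWF was at -0.30 with voom, -0.08 with the block, -0.14 with the block and GC offset, and -1.50 to 1.03 without each library. The cause of these turns was not tested. Genes under about 1 CPM are limited by depth.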
